A study of Mus musculus with 8 samples.

Results

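The cytosolic ribosomal protein genes encode the proteins of the cell's own ribosome, as opposed to the ribosome of mitochondria. The set held every gene symbol made of Rpl or Rps and digits, with or without a suffix, together with Rplp0, Rplp1, Rplp2 and Rpsa. S6 kinase genes (Rps6k), pseudogene symbols (-ps) and joined symbols were left out. It came to 88 genes among 24717 gene symbols, of which 46 encode core proteins of the large subunit and 31 core proteins of the small subunit. Of the other members, 10 are copies or relatives of core genes, and 1 (Rps19bp1) encodes a protein that binds S19. Both tables of the series listed 86 of the 88 members, while Rpl32l was listed only in the E12 table and Rps27rt only in the E17.5 table.

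A ribosome joins a large and a small subunit, each built from ribosomal RNA and many proteins that are needed in matched amounts. Most of the proteins come from 1 gene each, and a few have a relative that is used in particular tissues. Their messenger RNAs are among the most abundant of a growing cell and share a start rich in pyrimidines, the terminal oligopyrimidine tract, through which mTOR signalling controls their translation. Many of the genes carry small nucleolar RNA genes in their introns, and many have spawned retrotransposed copies across the genome. In the developing brain, dividing progenitors are known for a high demand for ribosomes.

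RNA of mouse embryonic hypothalamus was sequenced from Foxd1-mutant embryos and from controls labelled wild-type. The 8 libraries were 1 mutant and 1 wild-type library at E12.0, 1 mutant and 1 wild-type library at E12.5, and 2 mutant and 2 wild-type libraries at E17.5. The dissection text in the labels mentions E12.5 and E17.5 only, so whether the libraries labelled E12.0 were a separate collection is not stated, and E12.0 is kept as its own stage by its label. Foxd1 encodes a forkhead transcription factor, and the study compared the genotypes to learn what its loss does to neurons of the anterior hypothalamus. Each library was made from pooled RNA, and the labels name 8 Foxd1-null and 10 control embryos. They give no strain, sex or litter, and the text on the control animals can be read as either genotype. Whether the replicate libraries of E17.5 came from separate litters is not given. The p-values there are set against the spread between these libraries, which may therefore be technical. Expression was deposited as FPKM, fragments scaled by transcript length and by the mapped fragments of the library, so a value is a level per length and relative to everything else sequenced. In bulk RNA, fewer cells of a type and less RNA per cell cannot be told apart.

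Foxd1 itself stood at 2.77, 2.50, 0.396 and 0.230 FPKM in the mutant libraries of E12.0, E12.5 and E17.5 (2 libraries), against 24.95, 30.3, 3.90 and 1.96 FPKM in the wild-type ones. The 10 hypothalamic marker genes were listed in all libraries and none was at 0. Their summed level was 141 FPKM in mutant and 214 FPKM in wild-type at E12.0, and 232 FPKM in mutant and 198 FPKM in wild-type at E12.5. At E17.5 it was lower in both mutant libraries (63.9 and 51.9 FPKM) than in both wild-type ones (82.1 and 73.2 FPKM). The part of this in the E17.5 differences described below was not tested. Between 11572 and 13219 genes reached 1 FPKM. The number of mapped fragments was estimated from the spacing of low FPKM values in long transcripts. It came to 40.4 and 30.6 M in the mutant and 34.5 and 42.9 M in the wild-type E17.5 libraries, where 79.6% to 81.0% of low values lay within 0.1 of a whole fragment. The same estimate was loose at E12, where 32.1% to 41.3% did, and gave 17.3 M for mutant and 4.18 M for wild-type at E12.0, and 13.1 M for mutant and 58.0 M for wild-type at E12.5. The wild-type E12.0 library thus had the lowest estimate, and it also had the highest share of FPKM in small RNA genes, 24.5%. The second mutant E17.5 library stood apart from the other 3 of its stage with the lowest small RNA share (9.87%, against 13.9% to 14.7%) and the highest summed level of 7 telencephalic markers (78.0 FPKM, against 27.7 to 32.1 FPKM).

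The sequence around the start of transcription was compared between the members and all genes. RefSeq promoter windows on GRCm38.p6, which run from 250 bases before to 50 bases after the annotated start, were found for 67 of the 88 members. The pyrimidine run CTTTCC on the gene's strand, within 25 bases of the start, was present in 16.4% of these 67 and in 2.42% of all 27025 promoter windows. Over the whole window it was present in 35.8% of member and 14.0% of all windows, while its reverse complement GGAAAG, searched on the same strand, was present in 19.4% and 14.1%. The ETS core CCGGAAG, on either strand, was in 37.3% of member and 9.12% of all windows, and the YY1 core AAGATGGCG, on either strand, in 5.97% and 1.49%. Within 25 bases of the start the ETS core was in 13.4% of member and 3.48% of all windows, and the YY1 core in 0.0% and 0.426%. Each motif was searched on its own, so matches of different motifs may overlap, and a match is a description of the letters, not a binding site. The 7 windows of 30 bases that follow, written 5′ to 3′ with the pyrimidine run in capitals, show the run near the start. Apart from Rpl18, they come from genes whose values are described further on, Rps27 and its copy Rps27rt among them.
Rps27: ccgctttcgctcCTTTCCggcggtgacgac
Rps27rt: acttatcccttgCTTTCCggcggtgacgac
Rpl13a: caagacctcctcCTTTCCcaggcggctgcc
Rpl38: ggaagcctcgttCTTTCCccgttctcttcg
Rpl18: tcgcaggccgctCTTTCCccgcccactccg
Rpl28: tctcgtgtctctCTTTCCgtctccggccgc
Rpl35: gtcggccccgccCTTTCCtctttctctcga
On GRCm38.p6 these windows lie at the following places: Rps27 at chr3:90213630-90213659 (minus strand), Rps27rt at chr9:114982722-114982751 (minus strand), Rpl13a at chr7:45128719-45128748 (minus strand), Rpl38 at chr11:114668568-114668597 (plus strand), Rpl18 at chr7:45718062-45718091 (plus strand), Rpl28 at chr7:4792955-4792984 (plus strand) and Rpl35 at chr2:39005119-39005148 (minus strand). Rps27 and Rps27rt share the letters from the run onwards and differ before it. The shared stretch is 38 bases long and begins at base 2 of the annotated Rps27 transcript and at base 1 of the Rps27rt transcript.

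The ribosomal protein genes were highly expressed in all 8 libraries. The median core gene stood at 535 FPKM in mutant and 404 FPKM in wild-type at E12.0, and at 687 FPKM in mutant and 674 FPKM in wild-type at E12.5. At E17.5 the median was 564 and 536 FPKM in mutant and 584 and 566 FPKM in wild-type libraries. Other genes at 1 FPKM or more had a median between 9.85 and 12.3 FPKM. Summed, the members held 12.9% of FPKM in mutant and 10.5% in wild-type at E12.0, with small RNA genes left out of the total. They held 12.3% in each genotype at E12.5, and 10.9% and 10.6% in mutant and 11.1% and 10.8% in wild-type libraries at E17.5. The E17.5 shares and core medians leave out Gm15772, Gm12191 and Rpl34-ps1, copies of Rpl26, Rpl30 and Rpl34 described further on. Each copy stood at 489 to 891 FPKM in the E17.5 libraries, and shares with them added were not computed. Of the 100 highest gene symbols in a library, between 33 and 50 were members, with the lowest number in wild-type E12.0.

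**Figure D1:**
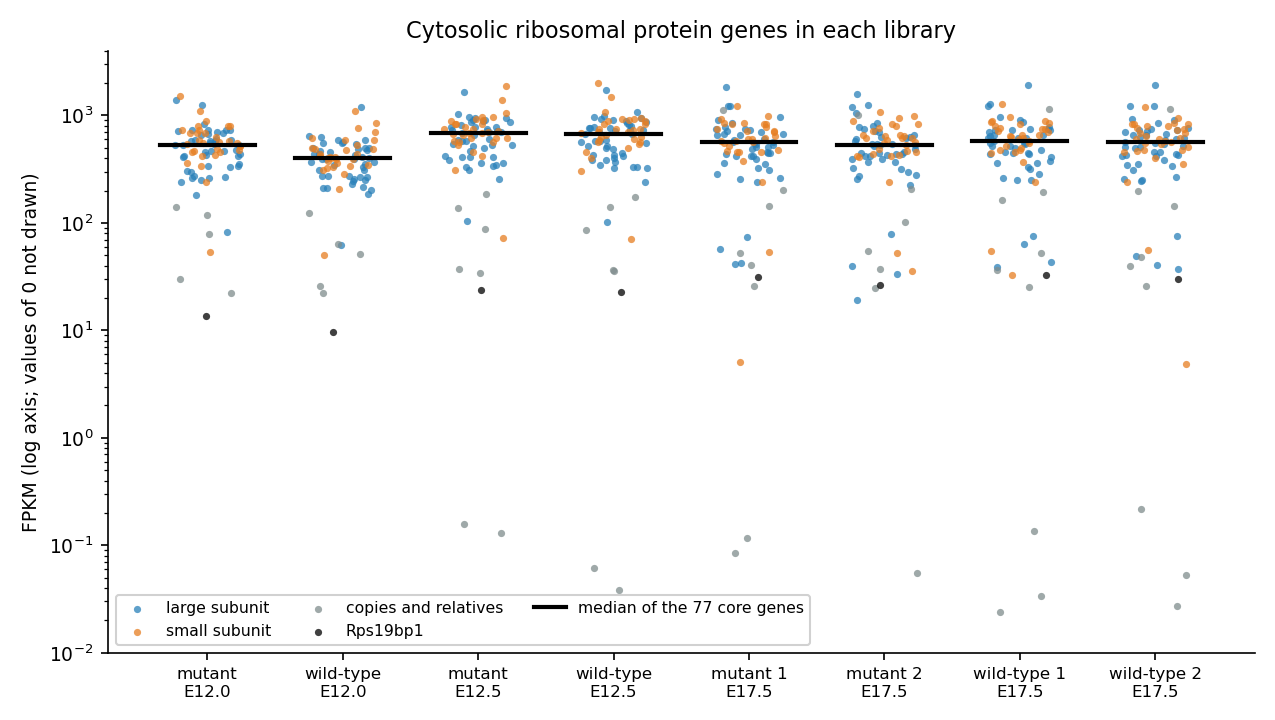
Level of each member in FPKM (log axis) in the 8 libraries, with 1 point per gene coloured by subunit and a black line at the median of the 77 core genes. The medians lie between 404 and 687 FPKM. The relatives reach from 0.1 FPKM or less up to above 100 FPKM, and the copy Rps27rt, drawn with them, reaches 1156 FPKM at E17.5. In the E17.5 libraries 4 core genes drop out of the main cloud.

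Rpl41, which encodes the smallest protein of the ribosome, had the highest mean level among the 86 members listed in both tables, 1659 FPKM over all 8 libraries. It was followed by Rps29 (1394 FPKM), Rpl23a (1066 FPKM), Rpl38 (1011 FPKM) and Rps26 (940.1 FPKM). Rpl41 had 1404 FPKM in the mutant and 1192 FPKM in the wild-type library at E12.0 and 1659 FPKM in the mutant and 1741 FPKM in the wild-type library at E12.5. At E17.5 it had 1836 and 1599 FPKM in the mutant libraries, against 1930.0 and 1908 FPKM in the wild-type ones. The lowest of the 86 were Rpl7l1 (28.5 FPKM), Rps19bp1 (23.8 FPKM), Rpl39l (0.0827 FPKM), Rpl3l (0.0271 FPKM) and Rpl10l (0.00759 FPKM). Of the members in a single table, Rps27rt averaged 1108 FPKM over the E17.5 libraries and Rpl32l 0.0493 FPKM over the E12 libraries. Short transcripts had higher levels than long ones. Over 73 core genes, Spearman's rho between transcript length and FPKM lay between -0.52 and -0.375 in the 8 libraries, which share 1 set of lengths from a later annotation than the authors'. Core transcripts under 600 nt had medians of 493 to 845 FPKM in the 8 libraries, against 385 to 599 FPKM for the longer ones.

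Within the pairs of a core gene and a relative compared here, relatives were low where a core gene was high, with 2 exceptions. The copy Rps27rt was not compared as a relative. Rpl22l1, the relative of the large subunit gene Rpl22, carried 50.5% to 68.1% of the summed FPKM of the pair in the 8 libraries. Rpl36al carried 28.9% to 34.6% of its pair with the X-linked Rpl36a. Rpl7l1 carried 3.03% to 4.33% of the pair with Rpl7, and Rps4l 3.60% to 5.92% of the pair with the X-linked Rps4x. Rps27l, a relative of Rps27 known as a p53 target, carried 4.04% to 6.72% of its pair when the copy Rps27rt was added to Rps27. The other 3 relatives of these pairs were at the floor of the tables, namely Rpl3l, known from striated muscle, and Rpl10l and Rpl39l, known from testis. Rpl3l did not exceed 0.0847 FPKM in any library, Rpl10l 0.0338 FPKM and Rpl39l 0.217 FPKM. Mutant and wild-type shares overlapped at E17.5 in 3 of the 5 pairs above the floor. They did not for Rpl36al, with 32.6% and 34.6% of its pair in mutant and 31.9% and 32.3% in wild-type libraries, nor for Rps27l, with 4.38% and 5.03% in mutant and 4.25% and 4.04% in wild-type libraries. For levels rather than shares, both mutant libraries lay below both wild-type libraries in 22.2% of all genes tested, and above both in 20.9%. With so few pairs, this separation cannot be read as particular to Rpl36al and Rps27l.

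No ribosomal protein gene passed the test between mutant and wild-type hypothalamus at E17.5. Of 84 members tested, 0 had an adjusted p under 0.05 in limma, beside 0.00756% of all 13235 genes tested. At an unadjusted p under 0.05 the count was 0 of 84, beside 5.7% of all genes. The lowest adjusted p of a member was 0.689. The median log2 difference of the members was -0.035, beside 0.0028 over all genes, and 28 of 84 lay above 0, beside 51.0% of all genes. Both mutant libraries lay below both wild-type libraries in 31 of 84 members, beside 22.2% of all genes, and above both in 14 of 84, beside 20.9%. These counts move with the scaling, to 38 of 84 above 0 with quantile normalization (median -0.0086) and 19 of 84 with small RNA genes left out (median -0.063).

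Of the large subunit genes, Rpl13 came closest to the threshold among those that were lower. It had 564 and 487 FPKM in the mutant E17.5 libraries, against 612 and 591 FPKM in the wild-type ones, a log2 difference of -0.20 ± 0.084 (SE, adjusted p = 0.689). Both mutant libraries were lower, and the second was much the lower of the pair. Rplp1, which with Rplp2 and Rplp0 forms the stalk that recruits elongation factors, had 901 and 704 FPKM in the mutant E17.5 libraries, against 973 and 928 FPKM in the wild-type ones. Its log2 difference was -0.25 ± 0.12 (SE, adjusted p = 0.689), and again the second mutant library was the lowest of the 4. Rplp2 had 715 and 608 FPKM in the mutant E17.5 libraries, against 726 and 747 FPKM in the wild-type ones, with a log2 difference of -0.16 ± 0.09 (SE, adjusted p = 0.689). Rplp0 had 671 and 627 FPKM in the mutant E17.5 libraries, against 704 and 678 FPKM in the wild-type ones, with a log2 difference of -0.091 ± 0.063 (SE, adjusted p = 0.695). All 3 stalk genes thus had both mutant libraries below both wild-type ones, and none passed the test.

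Rpl22l1 had 144 and 103 FPKM in the mutant E17.5 libraries, against 162 and 143 FPKM in the wild-type ones, and its log2 difference of -0.32 ± 0.16 (SE, adjusted p = 0.689) was mostly that of the second mutant library, since the first lay between the wild-type values. Of the higher members, Rpl35 of the large subunit had 970.0 and 1054 FPKM in the mutant E17.5 libraries, against 914 and 904 FPKM in the wild-type ones. Its log2 difference was 0.15 ± 0.068 (SE, adjusted p = 0.689), with no overlap between genotypes. Rps24 of the small subunit, one of the Diamond-Blackfan anaemia genes in humans, had 827 and 879 FPKM in the mutant E17.5 libraries, against 760.1 and 771 FPKM in the wild-type ones. That gave a log2 difference of 0.15 ± 0.062 (SE, adjusted p = 0.689), the largest above 0. Rps26 averaged 956 ± 53.5 FPKM in mutant and 869 ± 15.9 FPKM in wild-type libraries (SD, n = 2 each), with a log2 difference of 0.14 ± 0.068 (SE, adjusted p = 0.689). Rps6, the substrate of S6 kinase, had 377 and 417 FPKM in the mutant E17.5 libraries, against 369 and 356 FPKM in the wild-type ones, a log2 difference of 0.13 ± 0.069 (SE, adjusted p = 0.689). Rps12 averaged 1034 ± 58.7 FPKM in mutant and 956 ± 19.4 FPKM in wild-type libraries (SD, n = 2 each), with a log2 difference of 0.11 ± 0.069 (SE, adjusted p = 0.689). In these 5 members the second mutant library was the highest of the 4.

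**Figure D2:**
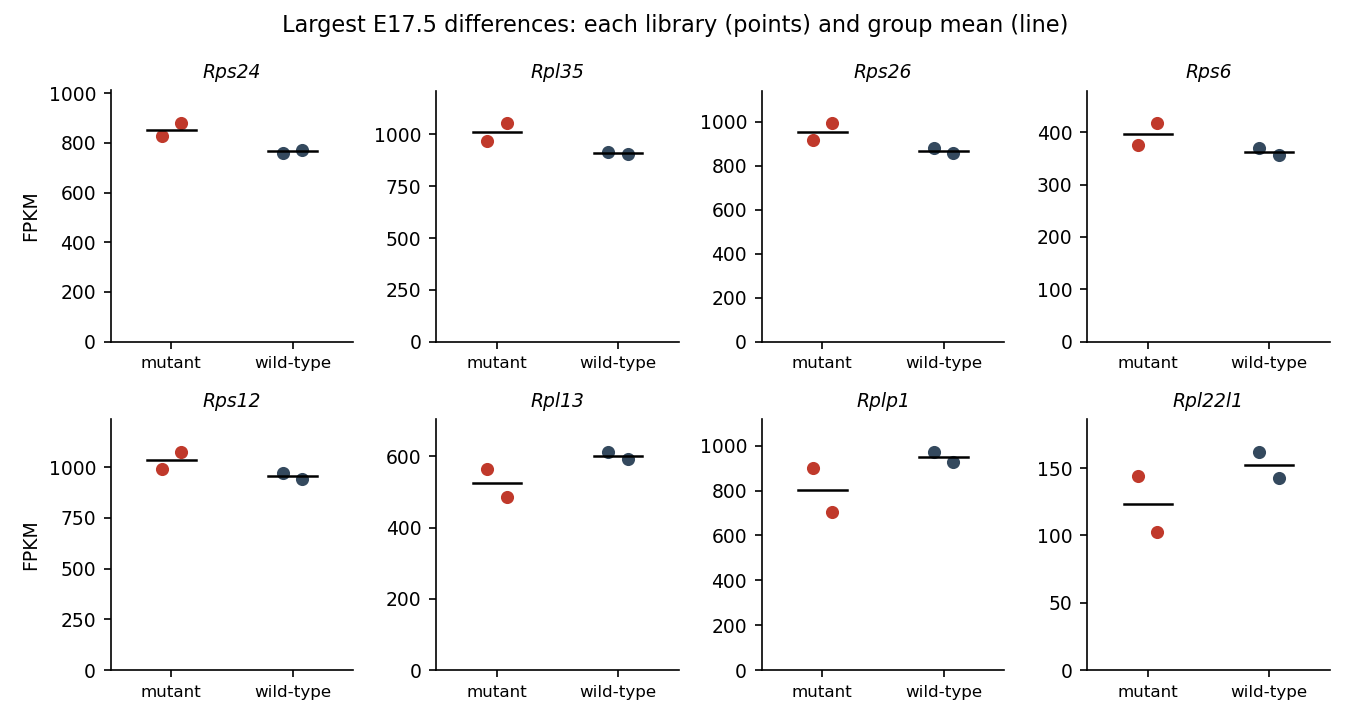
FPKM of 8 members with large E17.5 differences, each axis starting at 0, with a point per library (mutant left, wild-type right) and a line at the group mean of 2. The genes were drawn for their large differences, and the genotypes do not overlap in 7 of the 8, beside 22.2% of all genes with both mutant libraries below and 20.9% above; in all 8 the mutant points lie farther apart than the wild-type points.

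The 2 mutant libraries did not contribute evenly. Against the wild-type mean, the first had 37 of 84 members higher with a median log2 difference of -0.010, and the second had 25 of 84 higher with a median of -0.06. Deciles 1 and 9 of the members were at -0.067 and 0.057 in the first and at -0.28 and 0.12 in the second. Other genes of 100 FPKM or more had medians of -0.015 and -0.058 in the same libraries, with 227 and 202 of 591 higher. In the second mutant library the difference went with transcript length. The 19 core transcripts under 600 nt had a median of -0.17, with 16 lower, and the 54 longer ones had a median of -0.036, with 35 lower (Spearman's rho 0.386 over 73 genes). In the first mutant library the medians were -0.0054 for short and -0.021 for long transcripts (rho 0.126). Rank correlations of this size were also seen at E12, with a rho of -0.342 at E12.0 and 0.402 at E12.5 for mutant minus wild-type. Between the wild-type E17.5 libraries, the second was lower than the first in 16 of 19 short and 47 of 54 long transcripts, with medians of -0.032 and -0.030 (rho 0.162), about the size of the members' median of -0.035 between genotypes. The lower depth, lower small RNA share and higher telencephalic marker level of the second mutant library are given above, and their part in these differences was not tested. Without the first mutant library, which leaves 1 mutant library, 40 of 84 members had an unadjusted p under 0.05, beside 28.4% of all genes, and 0 an adjusted one. Without the second mutant library the count was 0 by either rule, beside 4.77% of all genes at the unadjusted p.

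The other genes named by role did not pass the test at E17.5 either. Rpsa, which encodes a small subunit protein also known as the laminin receptor precursor, had 552 and 536 FPKM in the mutant E17.5 libraries, against 548 and 543 FPKM in the wild-type ones, a log2 difference of -0.0041 ± 0.055 (SE, adjusted p = 0.982). Rpl5 and Rpl11 join the 5S ribosomal RNA and, when free, bind Mdm2. Their log2 differences were 0.069 ± 0.059 (SE, adjusted p = 0.720) for Rpl5 and -0.028 ± 0.06 (SE, adjusted p = 0.876) for Rpl11. Rps19, the first gene linked to Diamond-Blackfan anaemia in humans, had 468 and 412 FPKM in the mutant E17.5 libraries, against 501 and 480.4 FPKM in the wild-type ones. Its log2 difference was -0.16 ± 0.078 (SE, adjusted p = 0.689), with both mutant libraries lower. Rpl10 on the X chromosome stood at -0.068 ± 0.056 (SE, adjusted p = 0.716) and Rps27a, whose protein is made as a fusion with ubiquitin, at -0.074 ± 0.06 (SE, adjusted p = 0.710). Rpl41 had a log2 difference of -0.16 ± 0.089 (SE, adjusted p = 0.689).

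At E17.5, 4 core genes looked about 10-fold or more lower than at E12, in both genotypes, and each had a copy listed in the E17.5 table only. A copy here is a gene whose transcript shares stretches of 50 identical bases (50-base words) with the member. Rps27 had 1093 FPKM in the mutant and 767 FPKM in the wild-type library at E12.0 and 1407 FPKM in the mutant and 1496 FPKM in the wild-type library at E12.5. At E17.5 it had 5.11 and 36.0 FPKM in the mutant libraries, against 33.0 and 4.87 FPKM in the wild-type ones. The words shared with its copy Rps27rt were 54.2% of those of Rps27 and 89.8% of those of the copy. Rps27rt had 1131 and 1009 FPKM in the mutant E17.5 libraries, against 1156 and 1136 FPKM in the wild-type ones. Added together, gene and copy had 1136 and 1045 FPKM in the mutant E17.5 libraries, against 1189 and 1141 FPKM in the wild-type ones. The sum lay within the range of the E12 values, while the value of Rps27 alone was high in 1 library and low in the other of each genotype. Since reads from the shared stretches cannot be told apart, the level of Rps27 alone at E17.5 is uncertain.

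Rpl26 also had a copy listed in the E17.5 table only, Gm15772, where shared words were 60.6% of those of the gene and 74.3% of those of the copy. The gene alone had 42.0 and 19.2 FPKM in the mutant E17.5 libraries, against 43.4 and 37.2 FPKM in the wild-type ones, and the joined value was 911 and 910.0 FPKM in mutant and 891 and 902 FPKM in wild-type libraries. Unlike for Rps27, all joined values lay above the E12 ones, which ran from 487 FPKM (wild-type E12.0) to 824 FPKM (mutant E12.5). Alone, its log2 difference of -0.48 ± 0.34 (SE, adjusted p = 0.695) was the most negative of all members, and joined with its copy it was 0.022. Rpl34 alone had 57.4 and 39.5 FPKM in the mutant E17.5 libraries, against 63.7 and 49.6 FPKM in the wild-type ones, a log2 difference of -0.23 ± 0.20 (SE, adjusted p = 0.720). The words shared with Rpl34-ps1 were 33.3% of those of Rpl34 and 71.5% of those of the copy. With Rpl34-ps1 it had 583 and 541 FPKM in the mutant E17.5 libraries, against 593 and 583 FPKM in the wild-type ones. Without the second mutant library the values of the genes alone turned to 0.063 for Rpl26 and 0.031 for Rpl34. The words shared by Rpl30 and Gm12191 were 25.4% of those of the gene and 83.3% of those of the copy. Rpl30 alone had 41.5 and 33.7 FPKM in the mutant E17.5 libraries, against 39.3 and 41.0 FPKM in the wild-type ones, and with Gm12191 it had 563 and 576 FPKM in the mutant E17.5 libraries, against 544 and 529.8 FPKM in the wild-type ones. Its highest E12 value was 551 FPKM (wild-type E12.5), below the joined mutant values and above the joined wild-type ones. Among the 77 core genes, the wild-type level at E12.5 was 12.7 to 79.0 times the mean E17.5 level in these 4, while the next gene, Rps29, stood at 1.61 times. With copies joined, 0 members were called at E17.5, as before.

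**Figure D3:**
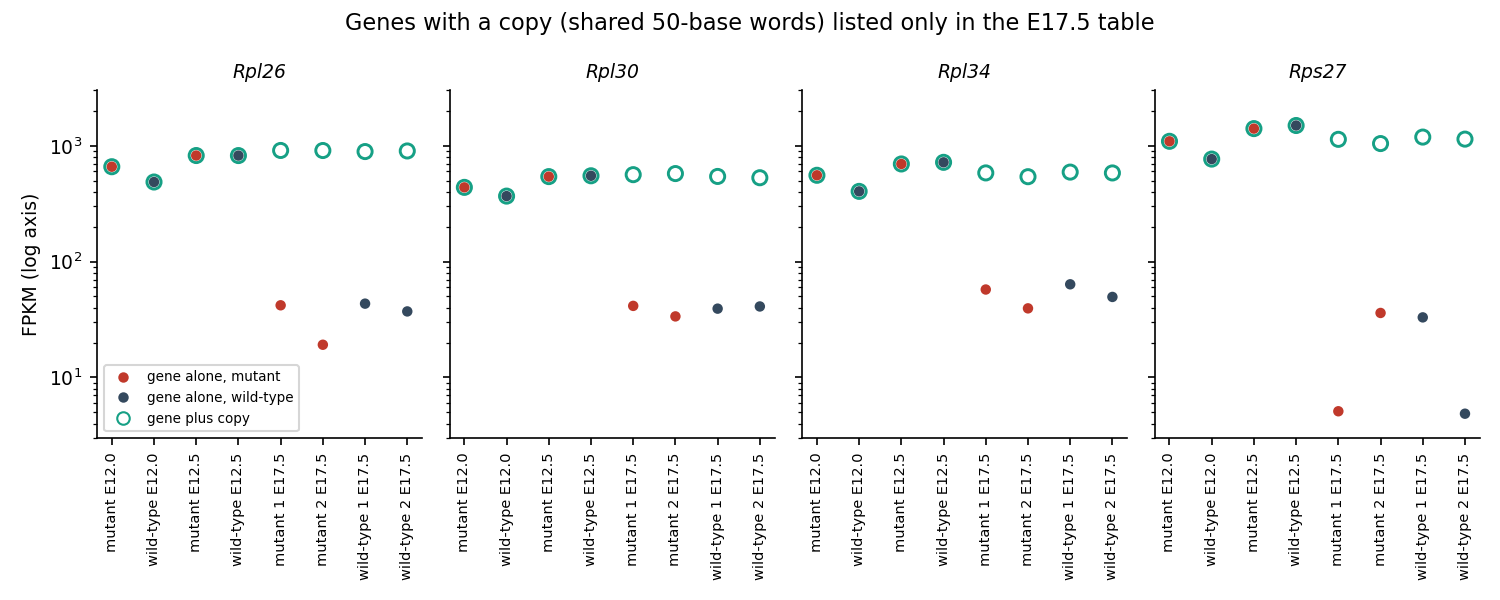
FPKM (log axis) of Rpl26, Rpl30, Rpl34 and Rps27 in each library. Filled points are the gene alone (red mutant, dark wild-type) and open circles the gene plus its copy, which differ only at E17.5; the open circles lie between 529.8 and 1189 FPKM there, while the filled points lie between 4.87 and 63.7 FPKM.

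At E12 the ribosomal protein genes stood higher in the mutant library of E12.0 and close to level at E12.5. Each early stage had 1 library per genotype, so a single stage has no replicate check and no test. At E12.0 the mutant was higher in 79 of 83 tested members, beside 52.4% of all genes tested, with a median log2 difference of 0.34, beside 0.020 over all genes. Other genes of 100 FPKM or more had a median of 0.15 there, with 353 of 497 higher. At E12.5 the mutant was higher in 48 of 83, beside 51.4%, with a median of 0.011. Of the 83, 1 was at least 2-fold higher at E12.0 (Rpl13a), beside 0.72% of all genes, and 0 at E12.5, beside 0.167%. None was at least 2-fold lower at E12.0 or E12.5, beside 1.83% and 0.535%. The mutant and wild-type E12.0 libraries also differed in the depth estimate given above, in small RNA share (21.2% and 24.5%) and in summed hypothalamic markers (141 and 214 FPKM). The part of these in the difference was not tested, and with 1 library each they and genotype cannot be told apart.

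**Figure D4:**
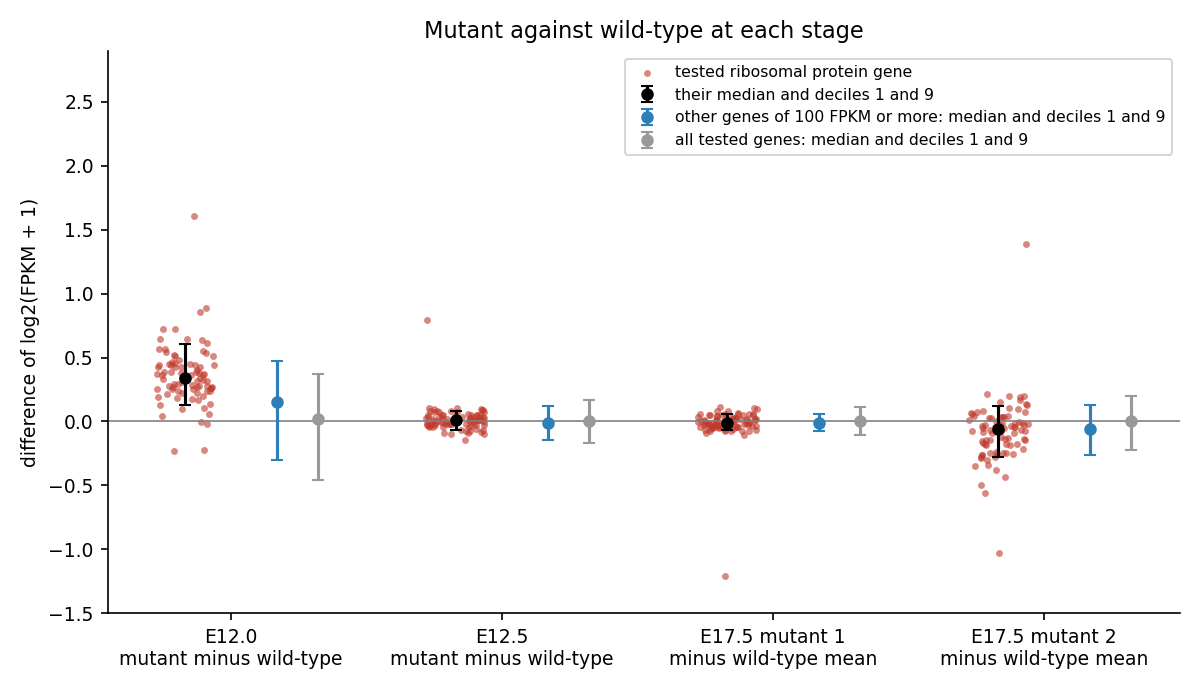
Difference of log2(FPKM + 1), mutant minus wild-type, for each tested member (red points) at E12.0, at E12.5 and for each mutant E17.5 library against the wild-type mean. Circles with bars are medians with deciles 1 and 9 of the members (black), of other genes of 100 FPKM or more (blue) and of all tested genes (grey); the members' median is 0.34 at E12.0, 0.011 at E12.5, -0.010 for mutant 1 and -0.06 for mutant 2. The isolated low or high points of E17.5 are Rps27 and Rpl26, each with a copy in the E17.5 table.

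Tested over both early stages with stage as a block, 0 of 83 members passed an adjusted p under 0.05, beside 0.0335% of 11952 genes. At an unadjusted p under 0.05 it was 1 of 83, beside 1.41%. The lowest adjusted p of a member was 0.976. These p-values test the mean genotype difference over both stages. With 1 residual degree of freedom, they set it against how far the difference of E12.0 departed from that of E12.5. limma moderated that spread with a prior drawn from all genes tested. The log2 difference was above 0 in 80 of 83 members, beside 52.2% of all genes, with a median of 0.18, beside 0.0086 over all genes. In 46 of 83 the mutant was higher at each stage, beside 25.9%, and in 2 of 83 lower at each, beside 21.8%. All 31 small subunit genes and 44 of 46 large subunit genes lay above 0. With small RNA genes left out 70 of 83 lay above 0 and the median was 0.069, beside -0.089 over all genes. With quantile normalization 70 of 83 lay above 0 and the median was 0.096, beside 0.020. The count of calls rests on the E12.5 libraries. Without the wild-type one, 32 of 83 members were called, all higher, beside 8.39% of genes called higher, and without the mutant one 29 of 83, all higher, beside 7.81%. In those fits the genotype difference at E12 is that of E12.0 alone, and its single libraries are assumed to vary like those of E17.5. Without both E12.0 libraries, 0 members were called and 48 of 83 lay above 0.

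Rpl13a, a large subunit gene that hosts 4 small nucleolar RNA genes, had the largest E12 difference. It had 1255 FPKM in the mutant and 411 FPKM in the wild-type library at E12.0, and 722 FPKM in the mutant and 771 FPKM in the wild-type library at E12.5. The log2 difference was 0.76 ± 0.44 (SE, adjusted p = 0.976), made wholly at E12.0 (1.61, against -0.095 at E12.5). Of its hosted genes, Snord34 was listed at 0 in the mutant and at 4665 FPKM in the wild-type library at E12.0, and at 0 in the mutant and 766 FPKM in the wild-type library at E12.5. Snord35a ran the other way at E12.0, at 237 FPKM in the mutant and 0 in the wild-type library. Snord32a was about level at E12.0, at 811 FPKM in the mutant and 833 FPKM in the wild-type library. These RNAs are short and lie inside the host gene, so reads can be shared between them and the host. Their part in the level of Rpl13a was not tested. At E17.5 Rpl13a had 504 and 452 FPKM in the mutant libraries, against 520.2 and 504 FPKM in the wild-type ones, and its hosted genes were at 0 in all 4 libraries. Across the set, 32 such hosted genes were listed within 22 members, and 14 of the 32 were at 0 in every library that listed them.

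Rpl39, an X-linked large subunit gene, was the member with an unadjusted p under 0.05 at E12. It had 583 FPKM in the mutant and 394 FPKM in the wild-type library at E12.0 and 732 FPKM in the mutant and 421 FPKM in the wild-type library at E12.5, a log2 difference of 0.68 ± 0.20 (SE, adjusted p = 0.976). The mutant was higher at both stages. At E17.5 it had 701 and 621 FPKM in the mutant libraries, against 735 and 711 FPKM in the wild-type ones, with both mutant libraries lower. The wild-type E12.5 value was the odd one of the later 6, at 421 FPKM against 621 to 735 FPKM in the rest. Rpl22l1 had 119 FPKM in the mutant and 63.8 FPKM in the wild-type library at E12.0 and 138 FPKM in the mutant and 139 FPKM in the wild-type library at E12.5, a log2 difference of 0.43 ± 0.24 (SE, adjusted p = 0.976). Rps20 of the small subunit had 796 FPKM in the mutant and 438 FPKM in the wild-type library at E12.0 and 912 FPKM in the mutant and 922 FPKM in the wild-type library at E12.5, a log2 difference of 0.42 ± 0.30 (SE, adjusted p = 0.976). Rpl24 had 411 FPKM in the mutant and 248 FPKM in the wild-type library at E12.0 and 527 FPKM in the mutant and 520.2 FPKM in the wild-type library at E12.5, a log2 difference of 0.37 ± 0.24 (SE, adjusted p = 0.976). In Rpl13a, Rpl22l1, Rps20 and Rpl24 the E12.0 pair was far apart and the E12.5 pair was close.

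Rps4l and Rpl28 had the lowest values at E12, both below 0. Rpl28 had 466 FPKM in the mutant and 548 FPKM in the wild-type library at E12.0 and 583 FPKM in the mutant and 579.7 FPKM in the wild-type library at E12.5, a log2 difference of -0.11 ± 0.21 (SE, adjusted p = 0.976). Rps4l stood at -0.13 ± 0.13 (SE, adjusted p = 0.976). Close to 0 were Rps26 at 0.012 ± 0.25 (SE, adjusted p = 0.996) and Rpl21 at 0.032 ± 0.15 (SE, adjusted p = 0.994). Rps26 and Rpl21 fall below 0 with small RNA genes left out, at -0.095 and -0.074. Among the genes named by role, the stalk genes stood at 0.17 ± 0.22 (SE, adjusted p = 0.976) for Rplp0, 0.18 ± 0.25 (SE, adjusted p = 0.976) for Rplp1 and 0.11 ± 0.24 (SE, adjusted p = 0.976) for Rplp2. Rps6 stood at 0.16 ± 0.18 (SE, adjusted p = 0.976), Rps19 at 0.24 ± 0.21 (SE, adjusted p = 0.976) and Rpsa at 0.091 ± 0.20 (SE, adjusted p = 0.976).

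Over all 8 libraries, with stage as a block, 0 of 83 members passed the adjusted threshold, beside 0.0% of 12519 genes. At an unadjusted p under 0.05 it was 1 of 83, beside 5.55%. The log2 difference was above 0 in 71 of 83 members, beside 50.7%, with a median of 0.062, but in 41 of 83 with a median of -0.0049 once small RNA genes were left out. It was above 0 in 31 of 83 without either or both of the E12.0 libraries. Rpl13a led with 0.33 ± 0.29 (SE, adjusted p = 0.769), before Rpl39 at 0.27 ± 0.17 (SE, adjusted p = 0.749) and Rps27l at 0.21 ± 0.10 (SE, adjusted p = 0.749). Rpl7 followed at 0.17 ± 0.10 (SE, adjusted p = 0.749) and Rps3a1 at 0.16 ± 0.08 (SE, adjusted p = 0.749). The lowest were Rpl26 at -0.13 ± 0.26 (SE, adjusted p = 0.892), which was 0.12 with its copy joined, and Rps4l at -0.056 ± 0.064 (SE, adjusted p = 0.813). Rpl41 stood at -0.04 ± 0.099 (SE, adjusted p = 0.917), Rplp1 at -0.039 ± 0.14 (SE, adjusted p = 0.946) and Rplp2 at -0.024 ± 0.092 (SE, adjusted p = 0.952). The member with an unadjusted p under 0.05 was Rps6, at 0.15 ± 0.06 (SE, adjusted p = 0.749). It was higher in the mutant at E12.0, at E12.5 and in both E17.5 libraries. Other members were too, among them Rps24, Rpl35 and Rps12, and the share of all genes with this pattern was not counted.

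The genotype difference was then compared between ages. For the E17.5 difference minus the E12 difference, 0 of 83 members passed the adjusted threshold, beside 0.032% of 12519 genes. At an unadjusted p under 0.05 it was 1 of 83 (Rpl39), beside 3.95%. The value was below 0 in 76 of 83 members, and above 0 in 7, beside 50.4% of all genes, with a median of -0.21. With small RNA genes left out 70 of 83 lay below 0 with a median of -0.13, and with quantile normalization 65 of 83 with a median of -0.12. Rpl39 had -0.81 ± 0.15 (SE, adjusted p = 0.749) and Rpl13a -0.86 ± 0.51 (SE, adjusted p = 0.749). Without the wild-type E12.5 library 17 members were called, all lower, beside 4.61% of genes, and without the mutant one 11, all lower, beside 3.53%. Without both E12.0 libraries 0 were called and the median was -0.047.

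Genes of the same pathway gave no call in any of these comparisons. Other proteins of the cytosolic ribosome come from Fau, whose product is made as a fusion, and Rack1, listed as Gnb2l1 at E17.5. Fau had a log2 difference of -0.049 at E17.5 and 0.09 at E12, and Rack1 -0.068 at E17.5 and 0.24 at E12. Of the mitochondrial ribosomal protein genes, 29 of 77 were above 0 at E17.5 (median -0.021) and 60 of 75 at E12 (median 0.10), with 0 called in each. Beside this and the lists that follow, 51.0% of all genes were above 0 at E17.5 (median 0.0028) and 52.2% at E12 (median 0.0086). The E12 values of the lists are not split into E12.0 and E12.5 here. At E17.5 the extremes were Mrpl55 (-0.45) and Mrpl14 (-0.28) below 0, and Mrps21 (0.15) and Mrpl22 (0.13) above. At E12 they were Mrpl14 (-0.18) and Mrpl27 (-0.17) below 0, and Mrpl46 (0.54) and Mrps16 (0.40) above.

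Ribosome biogenesis genes, whose products process ribosomal RNA and assemble subunits, had 22 of 37 above 0 at E17.5 (median 0.025) and 29 of 37 at E12 (median 0.063), with 0 called. Polr1c, a subunit of RNA polymerases I and III, had the lowest value at E17.5 (-0.19), with Nop10 next (-0.15) and Brix1 (0.26) and Ltv1 (0.13) at the other end. At E12 Nop2 (0.29) and Polr1c (0.26) were highest and the methyltransferase gene Fbl (-0.32) and Gar1 (-0.28) lowest. Other genes with a pyrimidine-rich start and elongation factors had 8 of 15 above 0 at E17.5 and 7 of 15 at E12. Their extremes were Eef1a2 (-0.15) and Eif3f (-0.11) below 0, and Nap1l1 (0.20) and the poly(A) binding protein gene Pabpc1 (0.14) above, at E17.5. At E12 Pabpc1 (-0.55) and Tpt1 (-0.20) were lowest and Eef1b2 (0.22) and Eef1d (0.22) highest. Their E12 median was -0.015, beside 0.0086 over all genes.

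Initiation factor genes had 13 of 22 above 0 at E17.5 and 12 of 22 at E12. Eif4ebp2 (-0.14) and Eif3i (-0.076) were lowest and Eif5b (0.17) and Eif3a (0.15) highest at E17.5. At E12 Eif4ebp2 (-0.91) and Eif1 (-0.58) were lowest and Eif3i (0.18) and Eif3g (0.17) highest. Targets of p53 and ribosomal stress genes had 6 of 14 above 0 at E17.5 and 6 of 12 at E12. Bbc3 (-0.30) and Phlda3 (-0.20) were lowest and Pmaip1 (0.30) and Perp (0.20) highest at E17.5, while Zmat3 (-0.56) and Bax (-0.19) were lowest and Phlda3 (0.40) and Gadd45a (0.31) highest at E12. S6 kinase and mTOR genes had 5 of 14 above 0 at E17.5 and 4 of 13 at E12. Rps6kb1, the S6 kinase that phosphorylates Rps6, was highest at E17.5 (0.19) with Rps6ka5 next (0.15), and Tsc2 (-0.10) and Rps6ka2 (-0.094) were lowest. At E12 Rps6ka3 (-0.61) and Larp1 (-0.21), whose protein binds pyrimidine-rich starts, were lowest, and Rps6ka2 (0.052) and Rps6ka6 (0.038) highest.

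The balance of the subunits differed little between genotypes within a stage. Summed FPKM of the large over the small subunit genes, with copies joined, was 1.28 in mutant and 1.28 in wild-type at E12.0, and 1.26 in mutant and 1.26 in wild-type at E12.5. At E17.5 it was 1.35 and 1.35 in mutant and 1.35 and 1.37 in wild-type libraries. Each core gene was next taken as a share of the summed FPKM of the 77, which removes differences in the total. Single genes differed more at E12. The share of Rpl13a was 2.95% in mutant and 1.26% in wild-type at E12.0, and that of Rpl39 was 1.39% in mutant and 0.80% in wild-type at E12.5. One table is per gene (E12) and the other per transcript (E17.5), so the stages are described and not tested. In wild-type, 59 of the 77 shares at E17.5 lay within 0.25 on the log2 scale of those at E12.5. All 4 E17.5 shares lay above all 4 E12 shares in 22 genes and below them in 23, and they overlapped in 32. No such count was made over all genes. Whether these numbers are particular to ribosomal protein genes is therefore not known, and stage cannot be told apart from the kind of table.

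The genes with a larger share at E17.5 were 14 of the large and 8 of the small subunit. Rpl38, a large subunit gene known for its part in translating Hox messengers in the mouse, had 1.83% in mutant and 1.87% in wild-type at E12.5, and 2.53% and 2.65% in mutant and 2.61% and 2.58% in wild-type at E17.5. Rps24 and Rps18 of the small subunit followed, at log2 shifts from E12.5 of 0.50 and 0.34 in mutant and 0.40 and 0.41 in wild-type. Those with a smaller share were 13 of the large and 10 of the small subunit. Rps29 had 3.55% in mutant and 3.80% in wild-type at E12.5, and 2.57% and 2.08% in mutant and 2.62% and 2.54% in wild-type at E17.5. Rpl13a shifted by -0.42 in mutant and -0.46 in wild-type, and Rps13 by -0.50 in mutant and -0.43 in wild-type. Over the 77 genes the shifts of mutant and wild-type ran alike (Pearson's r 0.856, Spearman's rho 0.906), as a description of genes that share libraries, tables and lengths. Rpl39 stood off this line, at 0.025 in mutant and 0.91 in wild-type, and its wild-type E12.5 share, 0.80%, was the lowest of the 8 libraries.

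**Figure D5:**
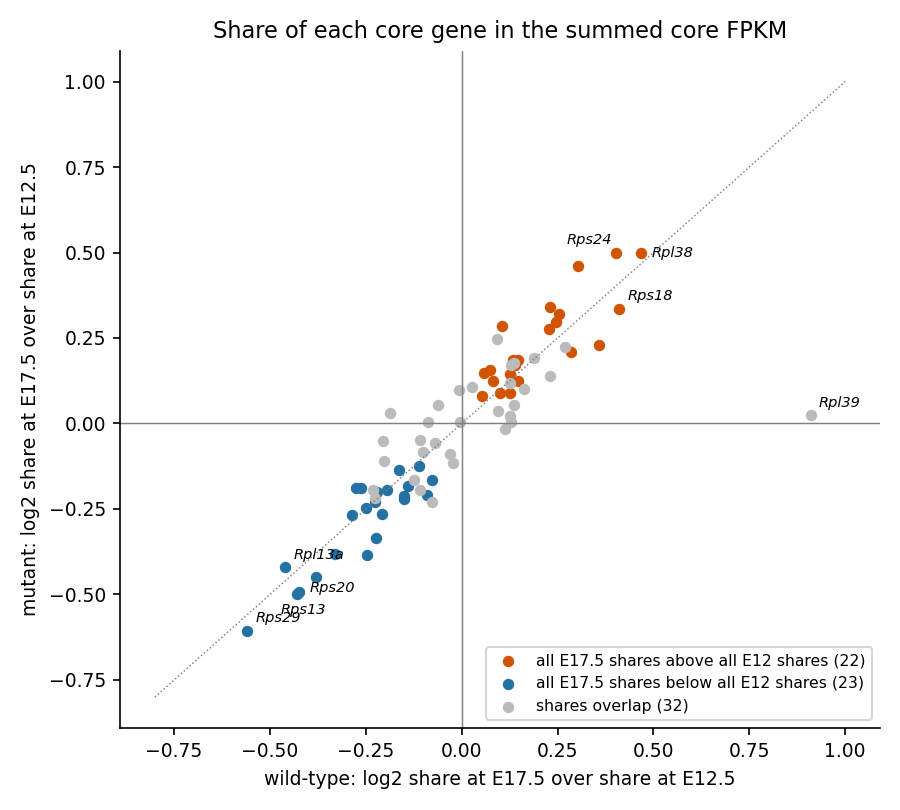
Log2 ratio of each core gene's share of the summed core FPKM at E17.5 over E12.5, in mutant (vertical axis) and wild-type (horizontal axis), with copies joined. Orange marks 22 genes whose 4 E17.5 shares all lie above their 4 E12 shares, blue 23 genes with all below, grey 32 with overlap. No such count was made over all genes. The dotted line is equality, and Rpl39 lies far from it.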

How the data were processed

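Pooled hypothalamic RNA was read as paired ends over 100 cycles, per the labels' protocols. Per the submitters' processing notes, reads were mapped with TopHat to mm9 and quantified with Cufflinks, without versions. FPKM values were deposited by the authors, per gene at E12 (23737 rows) and per transcript at E17.5 (32952 rows). Rows were summed by symbol, and 8 unnamed E12 rows, 0.0285% to 0.036% of FPKM, were left out. FPKM without counts allowed no count model. Values were tested as log2 of FPKM + 1, which understates changes of low genes, with limma 3.58.1 (trended prior) in R 4.3.3, for genes averaging at least 1 FPKM. Tests were two-sided, p was adjusted over all genes tested (Benjamini-Hochberg), and the threshold was 0.05. The fit at E17.5 had 4 libraries and no covariate; those at E12 (4) and over all stages (8) had stage as a block. Levels across the separately made tables were described only. A member of the set had to reach that mean, so 84 of 88 were tested at E17.5 and 83 elsewhere. Copies were found as transcripts sharing 50-base words in GENCODE vM21, which also gave lengths. Hosted genes were small nucleolar RNA genes lying inside the span of a member in the RefSeq annotation.

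The members, the pathway and marker lists and the tests were chosen with earlier results of these data known. Named are the 5 largest differences in each direction per comparison, the 5 highest and 5 lowest members, paralog pairs, genes picked by role and the 2 extremes of each pathway list in each direction at E17.5 and E12, except that some genes are not reported here. Each fit was tested on simulated data. The alternatives changed the pseudocount (0.1 and 5), filter, scaling, rows kept, trend, blocks and libraries. Joining copies, leaving out both E12.0 libraries and the spread from all libraries were added after seeing the data.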

Additional observations from a re-analysis of the deposited data

How the results depend on the processing

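No member was called at E17.5 or over all stages under any alternative run, and none at E12 or for the difference between ages except without 1 of the E12.5 libraries. Leaving out each library in turn gave 0 to 32 members called at E12 and 0 to 17 for the difference between ages. The median log2 difference of the members then ranged from 0.011 to 0.34 at E12 and from -0.38 to -0.047 for the difference between ages, and without both E12.0 libraries it was 0.011 and -0.047. For named members, 340 values were recomputed under alternatives other than leaving out 1 library. In 329 of them the direction held, 0 passed the threshold, and adjusted p ran from 0.222 to 1.0. Changing the filter, trend, blocks or source of the spread leaves the log2 difference itself unchanged. The direction could not turn under those alternatives, so the 329 overstate how far it was put to a test. The direction turned in 11. With copies joined, Rpl26 became 0.022 at E17.5 and 0.12 over all stages. Without both E12.0 libraries, Rpl13a became -0.095 at E12 and -0.099 over all stages, and at E12 Rpl22l1 became -0.018, Rps20 -0.017, Rpl28 0.0080 and Rps26 -0.034. With small RNA genes left out, Rps26 became -0.095 and Rpl21 -0.074 at E12, and with quantile normalization Rps26 became -0.18. The cause of these turns was not tested, except that joining adds the reads of the copy and leaving out libraries leaves E12.5 alone.

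Leaving out single libraries turned the sign within these ranges. At E12 the values ran from -0.095 to 1.61 for Rpl13a, -0.018 to 0.88 for Rpl22l1, -0.017 to 0.86 for Rps20, -0.23 to 0.0080 for Rpl28, -0.034 to 0.058 for Rps26 and -0.022 to 0.086 for Rpl21. At E17.5 they ran from -1.03 to 0.063 for Rpl26 and from -0.50 to 0.031 for Rpl34. Over all stages they ran from -0.099 to 0.47 for Rpl13a, from -0.32 to 0.16 for Rpl26, from -0.13 to 0.024 for Rpl41, from -0.19 to 0.075 for Rplp1 and from -0.11 to 0.050 for Rplp2.

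The numbers did not pair the E17.5 libraries, where replicate 1 minus 2 correlated by 0.028 between mutant and wild-type over 13235 genes. With a replicate block at E17.5, 0 members and 16 genes in all were called, against 0 and 1 without it. Without the stage block at E12, 0 members and 78 genes in all were called, against 0 and 4 with it. With small RNA genes left out, the median of all genes at E12 was -0.089, against 0.0086 in the main fit. Depth is known only as an estimate, firm at E17.5 alone.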
